A study of Homo sapiens with 12 samples.

Results

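The mitochondrial genome of the cell encodes 37 genes, and these are the genes described here. They were taken as all genes whose symbol begins with MT-, which gave 37 of the 58288 genes listed. They comprise 13 mRNAs for subunits of the respiratory chain and ATP synthase, 2 rRNAs of the mitochondrial ribosome and 22 tRNAs, and the mRNAs are kept apart from the other classes throughout. RNA-Seq was performed in FaDu, an established head and neck squamous cell carcinoma (HNSCC) line, in which Cas9 and a single lentiviral guide RNA had been introduced with puromycin selection. The WT group carried a non-targeting guide and kept STING, and the KO group carried a guide against TMEM173, the gene of the innate immune adaptor STING. Each genotype was either left unirradiated or given 2 Gy on each of 4 days, and every one of the 4 groups held 3 libraries. All 12 libraries share Cas9, a guide vector and culture in DMEM with serum. The time between the last fraction and the collection of RNA is not given in the sources used here. Each genotype is represented by 1 guide line, so a difference between genotypes is a difference between those lines. The labels do not say whether the 3 libraries of a group came from separate cultures, so p-values measure only the spread between these libraries, which may be technical.

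Mitochondrial DNA is a small circle transcribed from both strands as long precursors, which are cut at the tRNAs that lie between most of the genes. Release of the tRNAs by RNase P and ELAC2 frees the mRNAs and rRNAs, most of which then receive short tails of adenosine. MT-ND6, the only mRNA read from the opposite strand, is known for having little or no tail, and mature tRNAs have none. The mRNAs encode core subunits of complex I, complex III, complex IV and complex V, which work with subunits made from nuclear genes. Transcription is carried out by POLRMT with TFAM and TFB2M, LRPPRC with SLIRP stabilizes the mRNAs, and PNPT1 with SUPV3L1 degrades unwanted RNA. Released mitochondrial RNA and DNA are also known triggers of innate immune sensing, in which STING acts downstream of DNA sensing.

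Levels are given as TPM, transcript abundances that are scaled by gene length to a sum of 1000000 in every library. TPM are shares, so more mitochondrial RNA and less RNA from the nucleus cannot be told apart, nor can fewer cells and less RNA per cell. TPM keep no read depth, so the depth is unknown and no counting interval could be given. Fold changes are log2 differences of TPM + 1 with their standard errors (SE), from limma fitted to 15973 genes, and p-values were adjusted over all of these genes with a threshold of 0.05. All 37 mitochondrial genes passed the filter on low values. TMEM173 was at 21.1 to 26.1 TPM in the 6 WT libraries and at 5.18 to 7.41 TPM in the 6 KO libraries, and the unirradiated groups differed by -1.77 on the log2 scale (SE 0.11, adjusted p = 1.155e-05). The 8 squamous epithelial markers summed to 7310 to 10102 TPM, against 6.34 to 9.29 TPM for 5 fibroblast markers and 0 to 0.691 TPM for 4 leukocyte markers. The 3 endothelial markers summed to 11.5 to 23.9 TPM, mostly from CDH5, while PECAM1 stayed at or under 0.0989 TPM. VWF, the third marker, was at 2.60 to 3.00 TPM in unirradiated WT and at 3.28 to 3.58 TPM in irradiated WT. In KO it was at 3.17 to 3.55 TPM without radiation and at 4.05 to 4.49 TPM with it. Its rise did not pass the threshold in either genotype. CDH5, an endothelial cadherin, rose with radiation, at 0.61 in both genotypes (adjusted p of 0.0285 for WT and 0.0261 for KO). The squamous sum with radiation decreased by 4.73% in WT and decreased by 12.1% in KO, both without overlap, and the KO value decreased by 6.50% when KO replicate 2, the highest library, was left out. EPCAM, an epithelial adhesion molecule of the same list, rose in both genotypes (adjusted p of 0.0461 for WT and 0.0226 for KO). SFN of that list fell with radiation in KO cells, at -0.28 (adjusted p = 0.0105). KRT17 was lower in KO than in WT, at -0.29 without and -0.46 with radiation (adjusted p of 0.0141 and 0.000492). KRT14 was higher in unirradiated KO, at 0.24 (adjusted p = 0.0217), and SFN was lower in irradiated KO, at -0.21 (adjusted p = 0.0378). KRT5, a large part of the squamous sum, was higher in KO without overlap but did not pass the threshold. It was at 2459 to 2746 TPM in WT and 3032 to 4839 TPM in KO without radiation, with the highest value in KO replicate 2. With radiation it was at 1869 to 2426 TPM in WT and 2706 to 3497 TPM in KO. The part of either list in the radiation results was not tested.

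The mitochondrial genes were among the most abundant genes of the cell line and filled 7 of the 10 highest places in the mean over all libraries. The 13 mRNAs held between 8.02% and 10.6% of all TPM in a library, the 2 rRNAs between 0.669% and 1.12%, and the 22 tRNA genes between 0.217% and 0.370%. RNA was selected with oligo-dT beads, so the rRNA and tRNA values refer to molecules that were carried through that selection. The same limit holds for MT-ND6 among the mRNAs, given its little or no tail. MT-ATP8, a small subunit of ATP synthase, had the highest mean at 15970 TPM. It was followed by MT-ND4 of complex I at 12679 TPM, by MT-CO2 and MT-CO3 of complex IV at 11512 and 11143 TPM, and by MT-ND4L of complex I at 9368 TPM. MT-CO1, the catalytic subunit of complex IV, averaged 8664 TPM. A middle group was formed by MT-ND1 at 5184, MT-ND3 at 4478, MT-ND2 at 4290 and MT-CYB at 3733 TPM, the first 3 from complex I and the last the cytochrome of complex III. MT-ND5 of complex I at 2222, MT-ATP6 of ATP synthase at 2128 and MT-ND6 of complex I at 1192 TPM were lowest, and the whole span was 13.4-fold.

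The order of neighbors was the same in 12 of 12 libraries except at 3 places. MT-CO2 exceeded MT-CO3 in 10 libraries, and MT-ND3 exceeded MT-ND2 and MT-ND5 exceeded MT-ATP6 in 9 libraries each. Ranges over all libraries were separate at only 3 steps of the order, between MT-CO1 and MT-ND1, between MT-CYB and MT-ND5 and between MT-ATP6 and MT-ND6. For single mRNAs the highest library was between 1.19 times (MT-CO2) and 1.76 times (MT-ND6) the lowest.

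**Figure D1:**
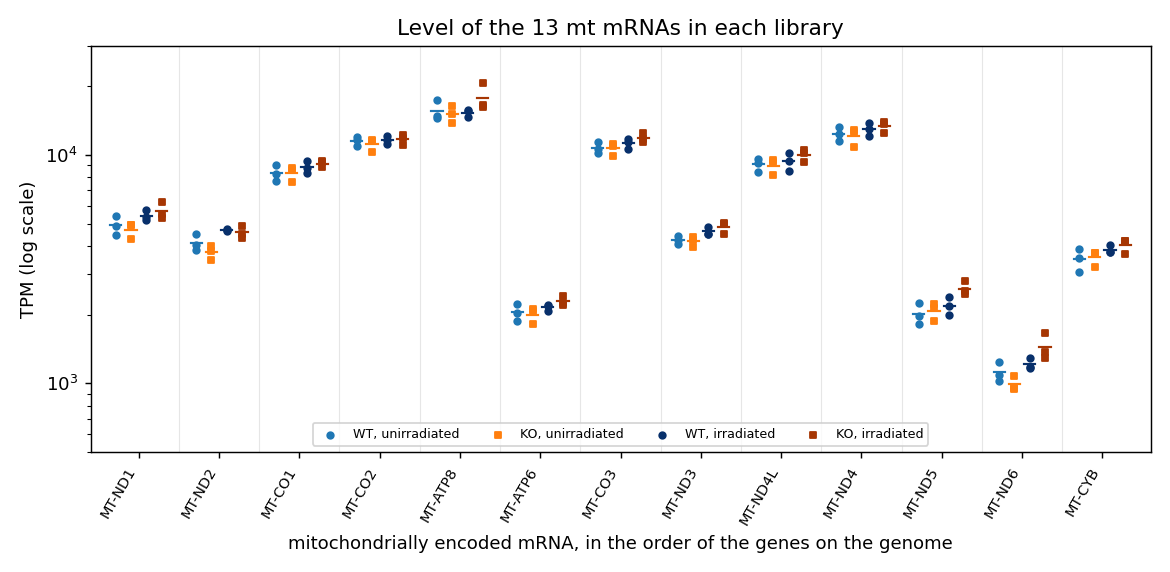
TPM (log scale) of the 13 mitochondrially encoded mRNAs in all 12 libraries, with 1 point a library and a short line at the mean of each group of 3. Differences between genes reach 13.4-fold, while the libraries of any 1 gene lie within 1.76-fold of each other, with MT-ND6 the widest.

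Among the mRNA genes, 3 neighboring pairs overlap on the same strand. MT-ATP6 and MT-CO3 have only base 9207 in common, and the other 2 pairs are known to be carried on shared mRNAs. On GRCh38, the reading frame of MT-ATP8 (chrM:8366-8572, plus strand) ends inside that of MT-ATP6 (chrM:8527-9207, plus strand). The ends of both genes are printed with the 46 shared bases in capitals, since reads from these bases belong to both genes.

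MT-ATP8, last 61 bases: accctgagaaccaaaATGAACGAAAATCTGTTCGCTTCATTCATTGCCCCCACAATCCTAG

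MT-ATP6, first 61 bases: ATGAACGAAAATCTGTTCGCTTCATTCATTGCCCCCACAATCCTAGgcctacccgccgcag

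MT-ND4L (chrM:10470-10766) and MT-ND4 (chrM:10760-12137), also on the plus strand, share 7 bases, again in capitals.

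MT-ND4L, last 22 bases: cctaaacctactccaATGCTAA

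MT-ND4, first 22 bases: ATGCTAAaactaatcgtcccaa

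The ratio of MT-ND4L to MT-ND4 stayed between 0.707 and 0.755 in the 12 libraries. MT-ATP8 was instead 7.03 to 8.55 times as high as MT-ATP6, with a median of 7.34. MT-ATP6 was also low beside MT-CO3, the next gene, at 0.184 to 0.197 of its level. The list of genes holds near-identical nuclear copies of mitochondrial genes, and 1 of them stood out. MTATP6P1 (chr1:633696-634376, plus strand), a copy of MT-ATP6 in nuclear DNA, was at a mean of 2628 TPM, 1.24 times the level of MT-ATP6 itself. Its 681 bases differ from those of MT-ATP6 at 10 positions (98.5% identity), and the longest run without a difference is 141 bases, longer than a 100-base read. The stretch of MT-ATP6 that holds this run (chrM:8655-8954, plus strand) is printed with its 6 differing bases in capitals, because reads that lie between them fit both genes equally well.

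MT-ATP6, bases 129 to 428: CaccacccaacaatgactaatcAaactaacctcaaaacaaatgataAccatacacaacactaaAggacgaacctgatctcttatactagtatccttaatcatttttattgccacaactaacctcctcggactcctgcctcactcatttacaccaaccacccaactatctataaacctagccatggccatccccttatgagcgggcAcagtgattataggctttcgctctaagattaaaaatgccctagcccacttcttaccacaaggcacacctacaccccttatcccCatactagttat

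Counted from 1 at the first base of MT-ATP6, all substitutions towards MTATP6P1 are G19A, C129T, A151C, A175G, A192G, A334G, C417T, C534A, C549T and C642T. MTATP6P1 was at 2015 TPM in WT replicate 1 and 2220 TPM in irradiated KO replicate 3, and at 2375 to 2938 TPM in the other 10 libraries. Divided by MT-ATP6 it gave 0.903 and 0.917 in those 2 libraries against 1.27 to 1.34 in the rest. The same 2 libraries had the highest MT-ATP8, at 17429 and 20694 TPM. How reads that fit both genes were shared out is not given in the sources used here, so the levels of MT-ATP6 and its copy are uncertain. With the TPM of the copy added to those of MT-ATP6, the ratio to MT-CO3 was 0.371 to 0.461 in the 12 libraries. The part of the copy in the low MT-ATP6 was not tested. The other 11 nuclear copies with a mean of at least 1 TPM each reached at most 0.00525 of the level of their mitochondrial gene, and 336 of the 405 copies listed were at 0 in all libraries. None of the 13 copies tested passed the threshold in any comparison. MTND2P28, a copy of MT-ND2 with 98.4% identity, was nearest among the 12 with a mean of at least 1 TPM, with radiation in KO cells at 0.38 (SE 0.10, adjusted p = 0.0701), and MTATP6P1 was at 0.29 (SE 0.12, adjusted p = 0.232) with radiation in WT cells and at 0.01 (SE 0.12) in KO cells.

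Loss of STING without radiation left the mitochondrial mRNAs at levels that could not be separated from WT. None of the 13 passed the threshold, where 1.73% of all genes tested did, and none reached an unadjusted p under 0.05, as 14.3% did. Their summed TPM were 96661, 83783 and 88455 in the WT libraries and 80156, 92561 and 90176 in the KO libraries. The 2 groups overlapped, and the means of 89633 ± 6519 and 87631 ± 6582 TPM (SD, n = 3) differed by less than 1 SD. The median log2 fold change of the 13 mRNAs was -0.03, beside -0.02 for all genes tested. Single values ran from -0.16 for MT-ND6 (95% interval -0.39 to 0.06) to 0.05 for MT-ND5 (-0.17 to 0.26). No rRNA or tRNA passed the threshold either. The KO libraries lay wholly outside the WT range for 1 of the 37 genes, the tRNA gene MT-TP, at 84.6 to 90.6 TPM against 90.7 to 105.6 TPM, where 20.6% of all genes had no overlap.

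After radiation, KO and WT cells likewise did not differ by the test, and most of the mRNAs lay slightly higher in KO. None of the 13 mRNAs passed the threshold, beside 3.59% of all genes, and 2 of them, MT-ND5 and MT-ND6, had an unadjusted p under 0.05, beside 17.9%. MT-ND5, a proton-pumping subunit of complex I, was at 2001, 2174 and 2397 TPM in irradiated WT and at 2462, 2531 and 2795 TPM in irradiated KO. MT-ND6 was at 1170, 1178 and 1286 TPM in irradiated WT and at 1372, 1293 and 1670.3 TPM in irradiated KO. Both were higher in all 3 KO libraries, at log2 fold changes of 0.25 each, with SE 0.10 and adjusted p of 0.212 and 0.230. MT-ATP8 and MT-ATP6 also did not overlap, which makes 4 of 13 mRNAs against 24.1% of all genes. The median over the 13 mRNAs was 0.06 and that over all genes -0.02. The log2 fold change was positive for 12 of 13 mRNAs. It was positive for 6 of 13 with quantile normalization, and for 5 of 13 when all values were scaled to the plus-strand mitochondrial mRNAs. Quantile normalization gives equal values to equal ranks, and the scaling divides by 12 of these mRNAs. Both therefore limit how far these mRNAs can move, so the counts are no test of the direction. Among the tRNAs, MT-TV was the nearest to the threshold at 0.31 (SE 0.13, adjusted p = 0.220).

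Radiation of WT cells moved no mitochondrial mRNA past the threshold, while 3.74% of all genes passed. The 13 mRNAs summed to 93477, 88830 and 98304 TPM after radiation, overlapping the unirradiated libraries, and the mean was 4.36% higher. That difference was 8.61% without WT replicate 1, 1.06% without WT replicate 2, 6.98% without irradiated WT replicate 2 and 1.70% without irradiated WT replicate 3. MT-ND2, a membrane subunit of complex I, showed the largest log2 fold change of the 13 at 0.19 (SE 0.07, adjusted p = 0.191). Its levels were 4527, 3846 and 4023 TPM before and 4645, 4692 and 4748 TPM after radiation, with no overlap. MT-ND3, another small membrane subunit of complex I, was the only other mRNA without overlap, at 0.12 (SE 0.06, adjusted p = 0.286), and 24.8% of all genes had none. Only MT-ATP8 had a negative value, at -0.03 (SE 0.10). The median was 0.08, beside 0.02 over all genes.

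In KO cells, 2 of the 13 mRNAs rose with radiation, where 3.69% of all genes passed the threshold in either direction and 2% did so upwards. MT-ND6 was at 957, 1080.1 and 947 TPM in the 3 unirradiated libraries and at 1372, 1293 and 1670.3 TPM in the 3 irradiated ones. All 3 irradiated libraries lay above all unirradiated KO libraries, and irradiated replicate 3 was the highest of the 12 libraries. The log2 fold change was 0.53 (SE 0.10, adjusted p = 0.0195), a 1.45-fold rise. The call was lost when KO replicate 1 (adjusted p = 0.0672) or KO replicate 3 (0.0720) was left out or when only the 2 KO groups were fitted (0.0903), and the other 10 libraries could each be left out without losing it. MT-ND2 went from 3465, 3980 and 3795 TPM to 4509, 4343 and 4902 TPM, again without overlap. Its log2 fold change of 0.29 (SE 0.07) had an adjusted p of 0.04999, and the call was lost without any 1 of 10 libraries and with only the 2 KO groups in the fit (0.135). Leaving out WT replicate 1 or WT replicate 2 kept it, and the highest adjusted p among the other 10 was 0.143, without irradiated KO replicate 3.

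The other 11 mRNAs had positive log2 fold changes in KO cells that did not pass. They ran from 0.08 for MT-CO2 (SE 0.06) to 0.32 for MT-ND5 (SE 0.10, adjusted p = 0.105). Groups did not overlap for 8 of the 13 mRNAs, which were MT-ND1, MT-ND2, MT-ND3, MT-ND5, MT-ND6, MT-CO1, MT-CO3 and MT-ATP6, where 24.3% of all genes had no overlap. The median over the 13 mRNAs was 0.20, beside 0.02 over all genes, and all 13 values were positive. The 13 mRNAs moved together from library to library, so these counts are not separate results. For the same reason the share over all genes is not a like baseline for them. Under quantile normalization 10 of 13 were positive, and 7 of 13 when scaled to the plus-strand mitochondrial mRNAs. As above, both alternatives limit how far these mRNAs can move, so the counts are no test of the direction. The summed TPM were 80156, 92561 and 90176 without radiation and 98670, 93274 and 106398 with it. The irradiated sums were all above the unirradiated KO sums, by 13.5% in the mean (irradiated replicate 2 and unirradiated replicate 2 were the nearest). By complex, the summed mRNAs were 15.6% higher for complex I, 12.9% for complex III, 8.69% for complex IV and 17.6% for complex V, and the sums overlapped for all but complex I. Without KO replicate 1 the difference was 8.84% for all 13 mRNAs, 7.92% for complex III and 4.60% for complex IV, and without irradiated KO replicate 3 it was 8.89% for complex V.

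**Figure D2:**
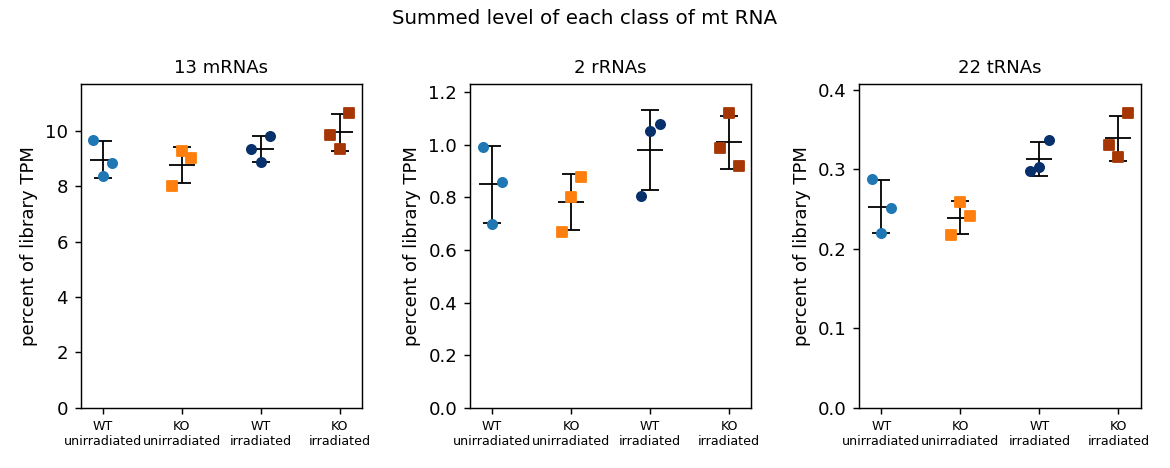
Percent of library TPM held by the 13 mRNAs, the 2 rRNAs and the 22 tRNAs, with 1 point a library and the mean ± SD of each group of 3 (each axis starts at 0). The tRNA sums of all 6 irradiated libraries, from 0.297% to 0.370%, lie above those of all 6 unirradiated libraries, from 0.217% to 0.288%. MT-TL1 alone holds 40.0% of the summed tRNA level.

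The radiation effect in KO cells was not shown to differ from that in WT cells. The difference of the 2 effects passed the threshold for none of the 37 genes, and for 0.0188% of all genes tested. It was positive for 13 of 13 mRNAs, which moved together from library to library and so are not separate results. Its median over them was 0.10, beside -0.002 over all genes. Under quantile normalization 10 of 13 were positive, and 5 of 13 when scaled to the plus-strand mitochondrial mRNAs. Both alternatives limit how far these mRNAs can move, so these counts are no test of the direction. MT-ND6 had the largest difference among the mRNAs at 0.41 (95% interval 0.10 to 0.73, unadjusted p = 0.0157, adjusted p = 0.711). The radiation comparison in KO and the unirradiated genotype comparison use the same 3 unirradiated KO libraries. In these, MT-ND6 averaged 995 ± 74.0 TPM (SD, n = 3), below 1117 ± 108 TPM in unirradiated WT.

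Within a library the mRNAs tended to lie together, above or below the other libraries of the group. In WT replicate 1, KO replicate 2, irradiated WT replicate 3 and irradiated KO replicate 3, all 13 mRNAs lay above the mean of their group. In WT replicate 2, KO replicate 1, irradiated WT replicate 2 and irradiated KO replicate 2, all 13 lay below it. The median deviation of a library from its group was between -0.13 and 0.125 on the log2 scale. In every comparison above, counts of mRNAs with 1 direction or without overlap are thus not counts of separate results. Levels relative to the other mitochondrial mRNAs of the same library were therefore also computed, as TPM per 1000 TPM of the 12 mRNAs on the plus strand.

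On this relative scale, MT-ND6 was at 12.4 to 12.95 in unirradiated WT and at 10.6 to 12.1 in unirradiated KO, and at 12.7 to 13.4 in irradiated WT and at 14.1 to 15.9 in irradiated KO. The 2 genotypes did not overlap in either condition, and KO was the lower without radiation and the higher with it. MT-ND2 was lower in KO in both conditions, at 42.5 to 43.8 against 46.1 to 47.4 without radiation and at 46.3 to 47.2 against 48.9 to 53.5 with it. Relative levels did not overlap between genotypes for 4 of the 13 mRNAs without radiation and for 5 with it. Of all genes scaled in the same way, 11.6% and 20.5% had no overlap. These shares are not a like baseline, since the divisor is made of 12 of these mRNAs and shares their deviation between libraries. When all genes were refitted after this scaling, a choice made after seeing the data, no mRNA passed the threshold between genotypes. MT-ND6 still rose with radiation in KO cells in that fit, at 0.35 (adjusted p = 0.0481), and MT-ND2 was at 0.11 (adjusted p = 0.306).

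**Figure D3:**
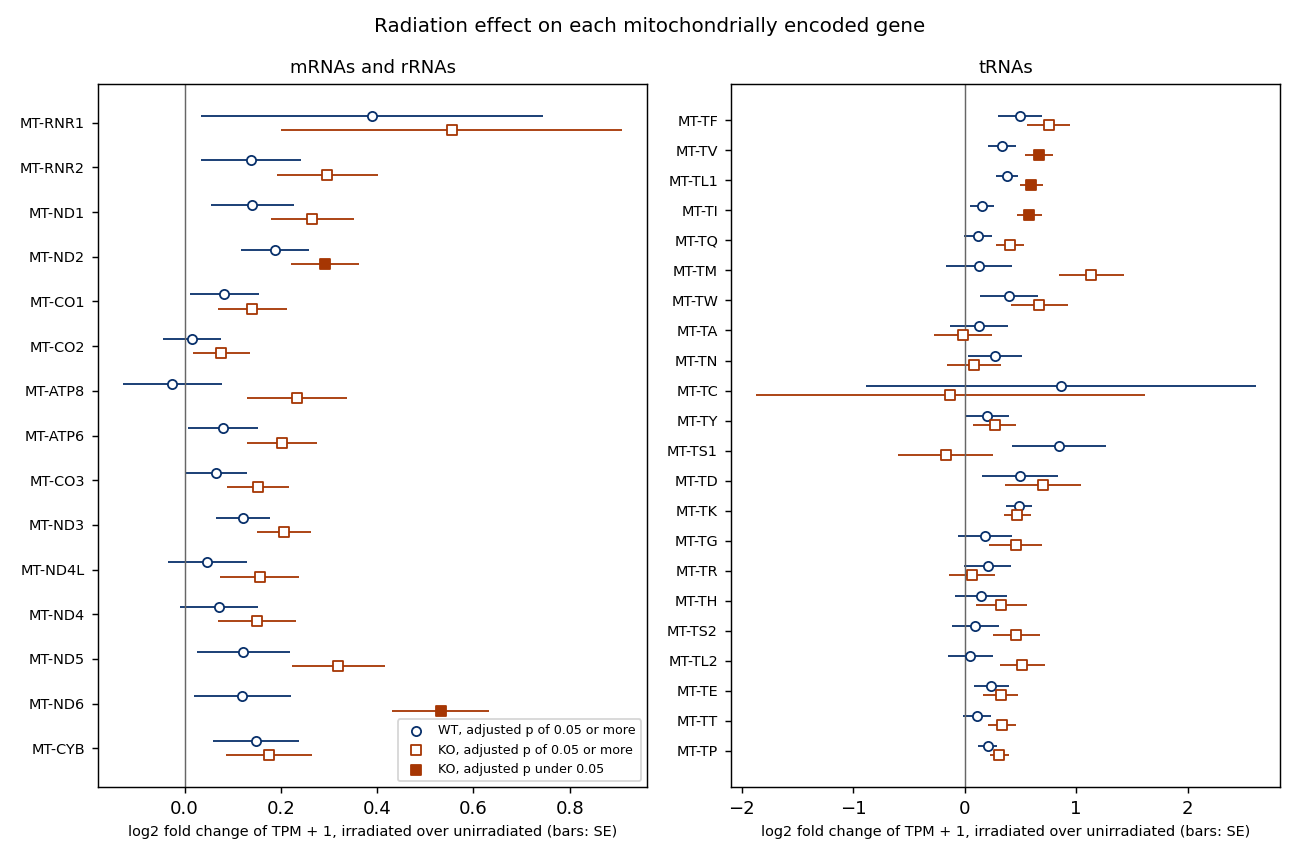
Log2 fold change of TPM + 1, irradiated over unirradiated, for each of the 37 genes in WT (circles) and KO (squares), with bars for the SE and filled symbols for an adjusted p under 0.05. The 5 filled symbols are all KO, for MT-ND6 at 0.53, MT-ND2 at 0.29, MT-TV at 0.67, MT-TL1 at 0.60 and MT-TI at 0.58.

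The tRNA genes spanned a far wider range of levels than the mRNAs, and 3 of the 22 passed the threshold, all with radiation in KO cells. MT-TL1, the gene of a leucine tRNA that lies between MT-RNR2 and MT-ND1, averaged 1144 TPM and held 40.0% of the summed tRNA level. MT-TE followed at 427 and MT-TV at 291 TPM, the median of the 22 was 46.8 TPM, and MT-TD was lowest at 4.32 TPM. The tRNA genes are 59 to 75 bases long, shorter than the 100-base reads, so reads counted there could also reach into the genes on either side, and how these were counted is not given in the sources used here. The strand setting is not given either, so reads from overlapping genes on opposite strands, such as MT-TI and MT-TQ, cannot be told apart. Genes on either strand, MT-ND6 among them, could also hold reads from the opposite strand.

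Radiation raised 3 of 22 tRNA genes in KO cells, all on the plus strand, where 3.69% of all genes passed the threshold and 2% did so upwards. In WT cells 0 of 22 passed, where 3.74% of all genes did. The 3 called in KO cells are MT-TV, a valine tRNA (chrM:1602-1670), MT-TL1 (chrM:3230-3304) and MT-TI, an isoleucine tRNA (chrM:4263-4331). MT-TV lies between the rRNA genes and the other 2 flank MT-ND1. Their sequences are printed because they carry these calls, and all letters are in lower case since no part of them is singled out.

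MT-TV: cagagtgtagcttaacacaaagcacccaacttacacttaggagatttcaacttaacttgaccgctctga

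MT-TL1: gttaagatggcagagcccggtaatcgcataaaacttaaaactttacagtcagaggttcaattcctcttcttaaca

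MT-TI: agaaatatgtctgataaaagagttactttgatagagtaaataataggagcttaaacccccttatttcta

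MT-TL1 was at 855, 979 and 945 TPM in unirradiated KO and at 1295, 1298 and 1641 TPM in irradiated KO. The log2 fold change was 0.60 (SE 0.10, adjusted p = 0.0109), and the call held without any 1 of the 12 libraries but not with only the 2 KO groups in the fit (adjusted p = 0.0710). In WT cells MT-TL1 went from 1095, 894 and 932 TPM to 1241, 1256 and 1295 TPM, without overlap, at 0.38 (SE 0.10, adjusted p = 0.0686). All 6 irradiated libraries lay above all 6 unirradiated ones. Leaving out irradiated KO replicate 3, which entered that WT value only through the shared estimate of the spread, gave an adjusted p of 0.0297. The difference of the 2 radiation effects was 0.22 (SE 0.14, adjusted p = 0.849).

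MT-TV went from 220.4, 232 and 261 TPM to 364, 398 and 370 TPM in KO cells, at 0.67 (SE 0.13, adjusted p = 0.0195). The call was lost without KO replicate 1, KO replicate 2, irradiated KO replicate 2 or irradiated KO replicate 3, at adjusted p of 0.0699, 0.0682, 0.0687 and 0.0574. MT-TI went from 60.8, 76.5 and 74.2 TPM to 109, 95.3 and 113 TPM, at 0.58 (SE 0.11, adjusted p = 0.0181). It was lost without KO replicate 1, irradiated KO replicate 1 or irradiated KO replicate 3, at 0.0539, 0.0604 and 0.0657, and with only the 2 KO groups in the fit, at 0.0776. In WT cells the same genes were at 0.33 (SE 0.13) for MT-TV and 0.16 (SE 0.11) for MT-TI, and neither passed.

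The remaining tRNA genes did not pass the threshold in any comparison. With radiation, 22 of 22 log2 fold changes were positive in WT cells and 19 of 22 in KO cells, with medians of 0.21 and 0.43 beside 0.02 in each case over all genes. Scaling to the mitochondrial mRNAs left 21 and 17 of 22 positive. In KO cells 11 tRNA genes did not overlap between irradiated and unirradiated libraries, 9 of 14 on the plus strand and 2 of 8 on the minus strand, where 24.3% of all genes had no overlap. In WT cells 3 of 22 did not overlap, where 24.8% of all genes had none. The median log2 fold change in KO cells was 0.55 on the plus strand and 0.18 on the minus strand. In WT cells the corresponding medians were 0.19 and 0.22. These strands are those of the annotation, as the strand setting of the reads is unknown. MT-TM, a methionine tRNA, had the largest value in KO cells at 1.14 (SE 0.30, adjusted p = 0.0638), from 4.67 to 9.17 TPM up to 12.7 to 17.6 TPM. MT-TF, a phenylalanine tRNA, was at 0.75 (SE 0.19, adjusted p = 0.0638). MT-TK, a lysine tRNA before MT-ATP8, was at 0.47 (SE 0.12, adjusted p = 0.0560) in KO and at 0.49 (SE 0.12, adjusted p = 0.0511) in WT. Its WT value passed without irradiated WT replicate 2 (0.0368) or KO replicate 1 (0.0353), and its KO value without irradiated WT replicate 2 (0.0421).

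The 22 genes together summed to 2875, 2201 and 2509 TPM in unirradiated WT, to 2172, 2589 and 2411 TPM in unirradiated KO, to 2970, 3030 and 3370 TPM in irradiated WT and to 3307, 3152 and 3704 TPM in irradiated KO. The irradiated sums lay above every unirradiated sum, by 23.5% in WT and 41.7% in KO between group means. MT-TL1 alone held 40.0% of the summed tRNA level, so the sums follow this gene more than any other. Whether the sums stay separate without it was not tested, so they do not show a rise of the tRNA genes as a class. The 14 plus-strand genes were 26.6% and 51.0% higher, and MT-TL1 made up 1144 of their mean of 2000 TPM over all libraries. The 8 minus-strand genes were 17.0% and 21.6% higher with overlap in both genotypes. Their sums in KO were 702, 880 and 691 TPM without radiation and 993, 791 and 981 TPM with it. These sums hold MT-TC, which was at only 0.370 TPM in KO replicate 3 and 0.557 TPM in irradiated KO replicate 2. The minus-strand value of WT was 27.5% without WT replicate 1, 8.15% without WT replicate 2 and 10.0% without irradiated WT replicate 3. The summed level of 18 RNAs that lack a poly(A) tail in the nucleus and cytoplasm, a measure of how far such RNA passed the bead selection, was 369 to 713 TPM. It averaged 590 ± 55.2, 553 ± 74.3, 596 ± 123.3 and 509.6 ± 123.8 TPM (SD, n = 3) in unirradiated WT, unirradiated KO, irradiated WT and irradiated KO, and its part in the tRNA result was not tested.

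**Figure D4:**
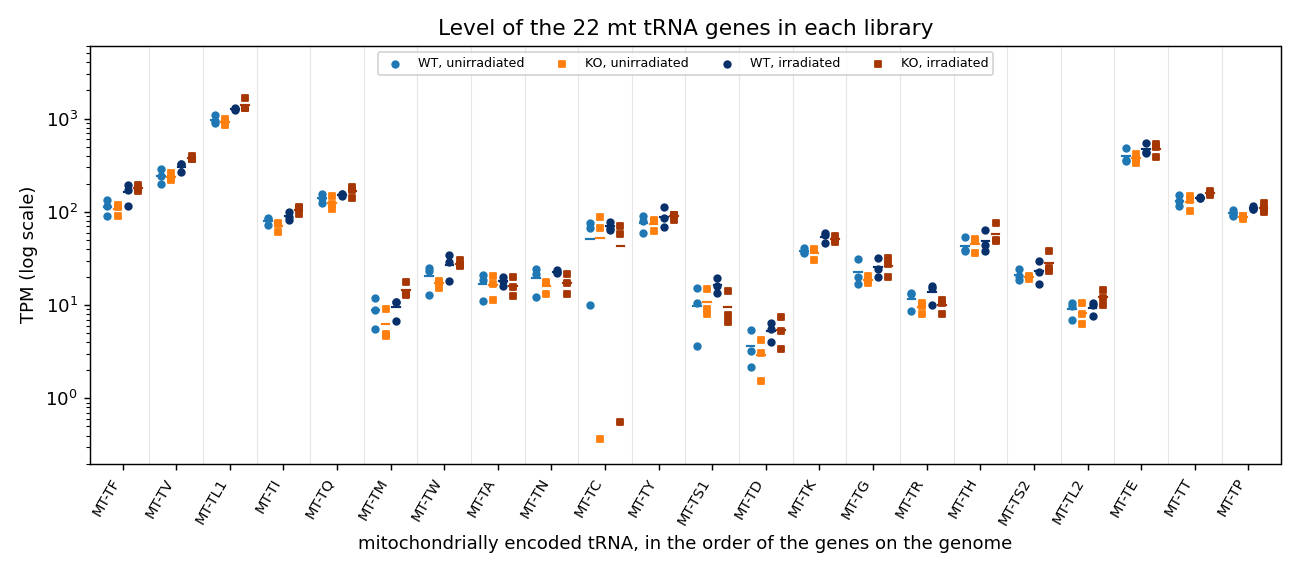
TPM (log scale) of the 22 mitochondrially encoded tRNA genes in all 12 libraries, with 1 point a library and a short line at the mean of each group of 3. MT-TL1 stands highest with a mean of 1144 TPM, MT-TD lowest with 4.32 TPM, and MT-TC spreads from 0.370 to 88.6 TPM without following the groups.

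MT-TC, a cysteine tRNA on the minus strand (chrM:5761-5826), varied more between libraries than any other of the 37 genes. It was at 76.1, 10.0 and 67.4 TPM in unirradiated WT and at 67.6, 88.6 and 0.370 TPM in unirradiated KO. After radiation it was at 78.2, 63.7 and 67.1 TPM in WT and at 57.2, 0.557 and 70.4 TPM in KO. A single library was low in 3 of the 4 groups, and the highest was 239.8 times the lowest. MT-TY, its neighbor on the same strand with 1 base in common at position 5826, stayed between 59.6 and 112 TPM in the same libraries. No comparison of MT-TC passed the threshold, and its SE was 1.75 on the log2 scale. Its sequence is printed in the direction of its own strand, as the gene with the widest spread, with no letters singled out.

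MT-TC: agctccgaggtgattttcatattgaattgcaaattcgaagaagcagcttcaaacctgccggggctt

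Relative to the 12 plus-strand mRNAs, 2 of the 37 genes were higher in every irradiated library than in every unirradiated one, both of them tRNA genes. MT-TL1 was at 10.6 to 11.5 per 1000 in the 6 unirradiated libraries and at 13.3 to 15.7 in the 6 irradiated ones. MT-TK was at 0.378 to 0.468 and at 0.474 to 0.650. Of all genes scaled in the same way, 0.726% were higher without overlap and 3.81% did not overlap in either direction. These shares are not a like baseline for a gene that moves with the divisor from library to library. The ratio of MT-TL1 to MT-ND1, the next gene, was 0.1903 to 0.202 without radiation and 0.227 to 0.265 with it. In the fit of the scaled values, MT-TL1 rose with radiation in KO cells at 0.42 (adjusted p = 0.0243) and was at 0.32 in WT cells (adjusted p = 0.0963). MT-TK was at 0.30 in KO (adjusted p = 0.207) and at 0.42 in WT (adjusted p = 0.182).

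**Figure D5:**
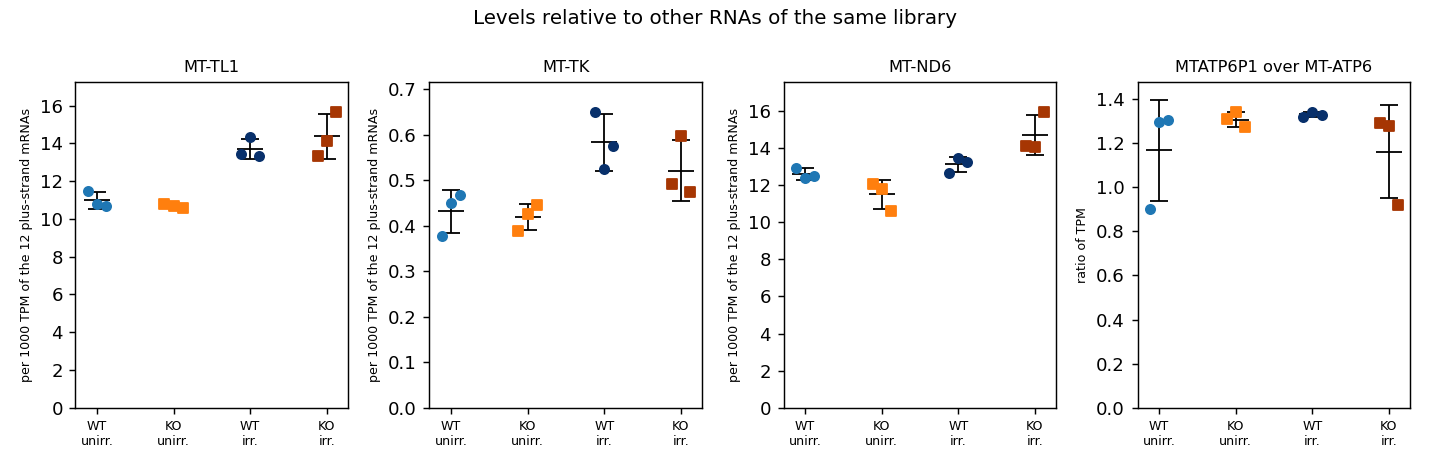
MT-TL1, MT-TK and MT-ND6 per 1000 TPM of the 12 plus-strand mitochondrial mRNAs, and the ratio of MTATP6P1 to MT-ATP6, with 1 point a library and the mean ± SD of each group of 3. MT-TL1 lies at 10.6 to 11.5 in the unirradiated and 13.3 to 15.7 in the irradiated libraries, and the ratio of copy to gene is near 0.9 in 1 WT and 1 irradiated KO library.

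The rRNAs of the mitochondrial ribosome did not pass the threshold in any comparison. MT-RNR2, the large rRNA, was at 5279 to 7614 TPM and MT-RNR1, the small rRNA, at 1384 to 3585 TPM. In KO cells MT-RNR2 went from 5279, 6237 and 6526 TPM to 7003, 7614 and 7466 TPM with radiation, without overlap, at 0.30 (SE 0.10, adjusted p = 0.161). MT-RNR1 spread up to 2.59-fold over the libraries, and its log2 fold change with radiation was 0.55 (SE 0.35) in KO and 0.39 (SE 0.35) in WT. The ratio of large to small rRNA ran from 1.99 to 4.29 and overlapped between all groups.

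Few of the nuclear genes that serve mitochondrial RNA passed the threshold in any comparison. The lists were 9 genes of transcription, 33 of RNA processing and decay, 19 of mitochondrial DNA maintenance, 14 of translation and 78 mitochondrial ribosomal proteins. None passed the threshold between the unirradiated genotypes, where 1.73% of all genes did. Of the transcription genes none passed in any comparison, and TFAM averaged 164, 162, 172 and 166 TPM in unirradiated WT, unirradiated KO, irradiated WT and irradiated KO. POLRMT, the mitochondrial RNA polymerase, was nearest at -0.24 (SE 0.07, adjusted p = 0.109) between irradiated KO and irradiated WT, and TFB2M was at -0.07 (SE 0.07).

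Of the 33 processing and decay genes, 2 rose with radiation in WT cells and 2 were lower in irradiated KO than in irradiated WT, where 3.74% and 3.59% of all genes passed. ELAC2, which cuts the precursors at the end of the tRNAs, rose by 0.27 (SE 0.05, adjusted p = 0.0150), from 88.5 ± 0.722 to 107 ± 1.72 TPM (SD, n = 3), and did not pass in KO cells. FASTKD3, an RNA-binding protein of mitochondria, rose by 0.22 (SE 0.05, adjusted p = 0.0310) in WT and was at -0.20 (SE 0.05, adjusted p = 0.0399) in irradiated KO against irradiated WT. MRM1, which methylates the large rRNA, was at -0.34 (SE 0.07, adjusted p = 0.0328) in the latter comparison. LRPPRC, SLIRP, PNPT1 and SUPV3L1 passed in none. SUPV3L1 came nearest with radiation in KO cells, at 0.26 (SE 0.07, adjusted p = 0.0691), and PNPT1 was at -0.33 (SE 0.11, adjusted p = 0.212) between the unirradiated genotypes.

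Of the 19 maintenance genes, 1 passed with radiation in WT cells, where 3.74% of all genes did. SLC25A4, the adenine nucleotide carrier of the inner membrane, rose there by 0.24 (SE 0.06, adjusted p = 0.0409). POLG and TWNK, the polymerase and helicase that copy mitochondrial DNA, did not pass, and TWNK was at -0.30 (SE 0.09, adjusted p = 0.1204) in irradiated KO against irradiated WT. No translation factor passed. Among the 78 ribosomal proteins, 1 passed with radiation in each genotype, where 3.74% of all genes did in WT and 3.69% in KO. MRPL54 fell by 0.22 in WT (SE 0.05, adjusted p = 0.0322) and by 0.27 in KO (SE 0.05, adjusted p = 0.0133). MRPS30 was the only 1 of them to pass in irradiated KO against irradiated WT, at -0.18 (SE 0.04, adjusted p = 0.0399), where 3.59% of all genes did.

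Nuclear subunits of the complexes that hold the 13 mitochondrial proteins passed the threshold in 2 cases. Of 37 complex I, 9 complex III, 11 complex IV and 16 complex V genes tested, NDUFS5 and UQCRC1 passed, each in 1 comparison. Of all genes, 3.59% passed between the irradiated genotypes and 3.69% with radiation in KO cells. NDUFS5 of complex I was 0.15 (SE 0.03, adjusted p = 0.0310) higher in irradiated KO than in irradiated WT. UQCRC1 of complex III was at -0.18 (SE 0.04, adjusted p = 0.0490) with radiation in KO cells. In that same comparison, where the median of the 13 mitochondrial mRNAs was 0.20, the medians of the nuclear lists were -0.01 for complex I, -0.07 for complex III, -0.07 for complex IV and 0.03 for complex V.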

How the data were processed

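RNA-Seq of 12 FaDu libraries was analysed (3 in each of 4 groups, assigned from the labels). RNA was selected with oligo-dT beads and sequenced as 100-base paired-end reads. Per the labels, the submitters' processing notes name HISAT2, StringTie, DESeq2 and hg38, without versions or roles. The annotation, the strand setting and the treatment of reads with several matches are not given in the sources used here. The authors deposited TPM per gene, so read depth is unknown, and no count test was used. Values were taken as log2(TPM + 1), and genes with TPM of at least 1 in at least 3 of 12 libraries were kept. Means of the 4 groups were fitted with limma 3.58.1 (R 4.3.3; eBayes with trend; 8 residual degrees of freedom), with 5 contrasts and Benjamini-Hochberg adjustment over all 15973 genes. Tests are two-sided. An exact permutation test of 3 against 3 libraries could not pass the threshold and was not used. The code of the fit was checked on simulated data in which genes varied independently. That check does not measure how well changes are found among genes that move together, as these mRNAs do. Coordinates and sequences are from GENCODE 29 transcripts on GRCh38, which matched all 37 identifiers. The columns of the table carry line names, which were read as WT and KO from the study's methods and supplement. Genes named were the 37 members, TMEM173, 9 regulators of mitochondrial RNA and DNA, and nuclear copies with a mean of at least 1 TPM. Up to 3 genes in each direction of each list past the threshold were also named. PECAM1, VWF and KRT5 were named after their values were seen. The members and lists were chosen with earlier results of these data known. Alternatives were another pseudocount, filters, scalings, a fit without trend, a replicate block, only the groups compared, and each library left out in turn.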

Additional observations from a re-analysis of the deposited data

Results flagged for a closer look

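Relative to the 12 plus-strand mitochondrial mRNAs of the same library, MT-ND6 and MT-TI were lower in KO than in WT without radiation and higher in KO than in WT with it, without overlap in either condition. The genotype difference of irradiated cells minus that of unirradiated cells was 2.68 per 1000 for MT-ND6. It was 0.206 per 1000 for MT-TI, which was at 0.873 to 0.990 in unirradiated WT, at 0.768 to 0.837 in unirradiated KO, at 0.943 to 1.02 in irradiated WT and at 1.04 to 1.12 in irradiated KO. These opposite directions were what drew attention to both genes, and the arithmetic differences per 1000 were not themselves tested. In the fit of all genes scaled to these 12 mRNAs, chosen after seeing the data, the difference of the radiation effects was 0.30 on the log2 scale for MT-ND6 and 0.31 for MT-TI (limma adjusted p = 0.897 for each), so neither passed the threshold. On the TPM scale, the test of the difference of the radiation effects gave 0.41 (limma adjusted p = 0.711) for MT-ND6 and 0.43 (adjusted p = 0.734) for MT-TI.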

How the results depend on the processing

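The number of mitochondrial mRNAs that rose with radiation in KO cells was 2. It was 1 with no filter on low values, with median-of-ratios factors, with quantile normalization, with eBayes without trend and with scaling to the plus-strand mitochondrial mRNAs (chosen after seeing the data), and 0 with only the groups compared. It ran from 0 to 2 with 1 library left out, with 0 without KO replicate 1 or KO replicate 3. With the replicate number as a block it was 1. Same-numbered libraries had correlations of deviations from -0.060 to 0.064 and correlated best with their own number in 5 of 18 choices, so the numbers did not pair the libraries. Scaling to the plus-strand mitochondrial mRNAs moved the median over the 13 mRNAs to 0.023 with radiation in KO cells and to -0.013 for the difference of the radiation effects. It set the median of all genes to -0.14 and -0.11 in these comparisons, as its construction divides by the mRNAs themselves. With only the groups compared, MT-ND6, MT-TL1 and MT-TI lost their calls (adjusted p of 0.0903, 0.0710 and 0.0776), and with the scaling to mitochondrial mRNAs MT-TV did (0.0682), and the cause was not tested. No called gene changed sign. Of 180 other pairs of a gene and a comparison, 6 passed under some alternative. Genes called in KO against WT without radiation, KO against WT with radiation, radiation in WT and radiation in KO numbered 276, 573, 597 and 590. These became 211, 378, 315 and 359 with the block, 103, 252, 166 and 195 with only the groups compared, and 106, 227, 119 and 264 with scaling to mitochondrial mRNAs. With 1 library left out they ran from 172 to 292, 313 to 542, 242 to 526 and 268 to 553. The 3 genes called for the difference of the radiation effects became 1 to 9 with 1 library left out, 7 with no filter, 1 with the block or without trend, and 0 with scaling to mitochondrial mRNAs. TPM keep no depth, so counting error of the weak tRNA genes could not be given.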
